A study of Mus musculus with 11 samples.

Results

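The miR-23, miR-27 and miR-24 microRNAs of the mouse come from 2 hairpin clusters, and their levels are described here in CD8+ T cells from the spleen. The members were chosen by name. They are the rows of the deposited table named on a list of arms of the miR-23a/27a/24-2 and miR-23b/27b/24-1 clusters. The list held guide and passenger arms, all but 1 passenger, and gave 10 miRNAs of the 1978 names in the table. The guides are mmu-miR-23a-3p, mmu-miR-27a-3p, mmu-miR-23b-3p, mmu-miR-27b-3p and mmu-miR-24-3p. The passengers are mmu-miR-23a-5p, mmu-miR-27a-5p, mmu-miR-27b-5p, mmu-miR-24-2-5p and mmu-miR-24-1-5p. The species prefix is left out from here on. The passenger arm of the mir-23b hairpin, miR-23b-5p, was not on the list of members and is given with the neighbouring miRNAs. All 10 members passed the filter on low counts, which kept 549 rows for testing.

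Small RNA was sequenced in 11 libraries of 4 groups: Clean TN (2 libraries, replicates 2 and 3), Clean VM, Dirty TN and Dirty VM (3 libraries each). All groups were sorted from spleen as CD4-, CD8+, CD49dlo and GFP+ cells. The "stamped TN" cells were CD44lo and the "stamped VM" cells CD44hi. TN stands for true naive cells and VM for virtual memory cells, which carry memory markers without having met foreign antigen. The labels give no genotype, age or treatment, do not define "clean", "dirty" or "stamped", and do not say which cells carry GFP or why. They also do not say whether replicates came from separate mice, so p-values measure the spread between these libraries, which may be technical. Totals ran from 2614396 to 16312004 counts per library, a 6.24-fold range, and 3 counts, the limit that a count of 0 allows, corresponded to 0.184 to 1.147 CPM (counts-per-million values on TMM-scaled totals). That limit covers counting error only.

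A microRNA hairpin is cut into a duplex with a 5p and a 3p arm. The guide arm is loaded into an Argonaute protein and represses messenger RNAs that pair with its seed, while the passenger arm is mostly degraded. Each of the clusters gives 3 hairpins from a shared primary transcript, and in every hairpin the 3p arm is the guide. In T cells, miR-24 and miR-27 are known to restrain type 2 helper responses, in part through Il4 and Gata3, and miR-23a is known to repress Blimp-1, a transcription factor of effector cytotoxic T cells.

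The mature sequences below show which members can act on the same targets and which can be told apart by a read. They are RefSeq sequences on GRCm38.p6, the same assembly as mm10, all on the + strand, written 5′ to 3′ with the seed (bases 2 to 8) in capitals. Of the 10 members, 9 had a mature sequence in the RefSeq table, all but miR-23b-3p, whose seed was therefore not compared.
miR-23a-3p (chr8:84208563-84208583): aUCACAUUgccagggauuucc
miR-27a-3p (chr8:84208727-84208747): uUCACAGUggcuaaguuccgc
miR-27b-3p (chr13:63300760-63300780): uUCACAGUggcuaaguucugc
miR-24-3p (chr8:84208875-84208896 and chr13:63301251-63301272): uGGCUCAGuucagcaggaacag
miR-24-2-5p (chr8:84208839-84208860): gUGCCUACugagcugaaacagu
miR-24-1-5p (chr13:63301213-63301235): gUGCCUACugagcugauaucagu
miR-27a-5p (chr8:84208685-84208706): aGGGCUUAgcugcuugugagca
The 2 miR-27 guides share the seed UCACAGU and their first 18 bases. They differ by 1 substitution, C19U, counted from the 5′ end with the base of miR-27a-3p first. The miR-24 guide is the same sequence from both chromosomes, so its reads cannot be given to either cluster. The passengers miR-24-2-5p and miR-24-1-5p share their first 16 bases and part after them, and they are the arms that separate the mir-24 hairpins. No other miRNA of the table with a RefSeq sequence shared the seed of miR-23a-3p or of the miR-27 guides. The seed of miR-24-3p, GGCUCAG, was shared by miR-5124b, miR-6369, miR-6410 and miR-6413, each with 0 counts in all 11 libraries.

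On chromosome 8, the hairpins of miR-23a (84208518 to 84208592), miR-27a (84208672 to 84208758) and miR-24-2 (84208815 to 84208921) lay within 404 bases. The mir-24-2 hairpin overlapped an exon of the long noncoding RNA gene Gm26532, and the other 2 overlapped no other annotated gene. On chromosome 13, miR-23b (63300484 to 63300557), miR-27b (63300712 to 63300784) and miR-24-1 (63301208 to 63301275) lay within 792 bases. The mir-23b hairpin was in an intron of 2010111I01Rik, which encodes an aminopeptidase, and the mir-27b and mir-24-1 hairpins overlapped an exon of at least 1 of its transcripts. All 3 were also in an intron of Fancc, a DNA repair gene on the opposite strand.

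The deposited counts had the form that an equal split of reads matching both rows of a pair would give. The counts of miR-23a-3p and miR-23b-3p held a fraction of 0.5 in 6 of 11 libraries each, and their sum was whole in all 11 (within 1e-06 counts). The same held for miR-27a-3p and miR-27b-3p, and, with fractions in 8 libraries, for miR-24-2-5p and miR-24-1-5p. Such a split draws the values of paralogs towards each other. The files do not give the number of shared reads. Values of different miRNAs in CPM compare read numbers of RNAs 21 to 23 bases long. Ligation to sequencing adapters favours some sequences, so an order of levels between miRNAs is an order of reads.

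Together the 5 guides took a larger share of the counts in TN than in VM libraries of clean mice. Their share was 2.77% and 2.58% in the Clean TN libraries and 1.39%, 1.39% and 1.47% in the Clean VM libraries. It was 1.8%, 2.24% and 2.84% in the Dirty TN libraries and 2.16%, 1.71% and 2.33% in the Dirty VM libraries. The groups did not overlap in clean mice and overlapped in dirty mice.

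Averaged over clean and dirty mice, 6 of the 10 members were lower in VM than in TN cells and none was higher (edgeR quasi-likelihood test, Benjamini-Hochberg adjusted over 549 rows, threshold 0.05). Of all rows tested, 12.4% were lower and 10.7% higher. The members that fell were the guides miR-23a-3p, miR-27a-3p, miR-24-3p and miR-27b-3p and the passengers miR-24-2-5p and miR-24-1-5p. The median log2 change of the 10 members was -0.47, against 0.05 over all tested rows. In bulk samples, fewer cells of a type and less RNA per cell cannot be told apart.

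**Figure D1:**
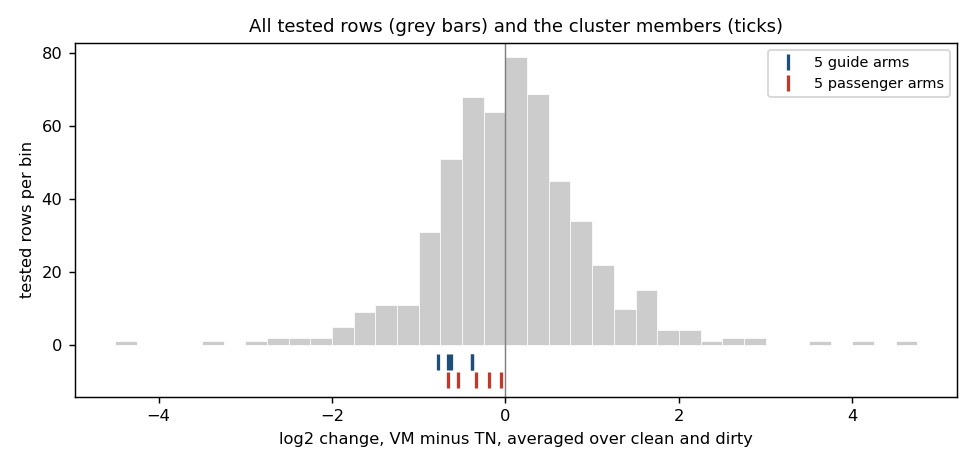
Histogram of the averaged log2 change between VM and TN cells of both environments over the 549 tested rows (grey bars, number of rows per bin). Each member has a tick below the axis (blue for 5 guide arms and red for 5 passenger arms). The ticks of miR-24-3p and miR-27a-3p touch, and those of miR-27b-3p and miR-23b-3p, at -0.39 and -0.38, overlap. All 10 ticks lie below 0, between -0.78 for miR-23a-3p and -0.05 for miR-23a-5p, inside the range of the other rows.

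MiR-23a-3p, the guide known to repress Blimp-1, was at 3200 and 3003 CPM in the Clean TN libraries and at 1493, 1786 and 1448 CPM in the Clean VM libraries. In dirty mice it stood at 1798, 2679 and 3202 CPM in TN and at 1742, 1544 and 1839 CPM in VM. The groups did not overlap in clean mice, while Dirty TN replicate 1 lay among the Dirty VM libraries. Its averaged log2 change was -0.78 ± 0.15 (SE), a 1.72-fold lower level in VM cells, with an edgeR adjusted p of 0.00186. This was the lowest averaged change among the members.

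MiR-27a-3p, the middle hairpin's guide on chromosome 8, was at 3377 and 3398 CPM in Clean TN and at 1554, 1658 and 2080 CPM in Clean VM. The Dirty TN libraries had 2568, 2974 and 3184 CPM and the Dirty VM libraries 2463, 1936 and 2571 CPM. Clean TN was above Clean VM in every library, and the highest Dirty VM library just exceeded the lowest Dirty TN library. The averaged change was -0.63 ± 0.13, 1.55-fold lower in VM, with an edgeR adjusted p of 0.00329.

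MiR-24-3p, the guide shared by both clusters, was given as the sum of its 2 rows. It was at 3675 and 3223 CPM in Clean TN, and at 1848, 2110 and 2305 CPM in Clean VM. In Dirty TN it was at 3456, 3452 and 3761 CPM, and in Dirty VM at 2266, 2087 and 2700 CPM. It was the one guide whose TN and VM libraries did not overlap in either environment. The averaged change was -0.66 ± 0.12, 1.58-fold lower in VM, with an edgeR adjusted p of 0.00168.

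The chromosome 13 guides had smaller log2 changes. MiR-27b-3p, the member with the most reads, was at 13423 and 14014 CPM in Clean TN and at 7940, 7917 and 9842 CPM in Clean VM. Its Dirty TN libraries had 11005, 12917 and 13806 CPM and its Dirty VM libraries 11732, 10839 and 12617 CPM. Here the clean groups did not overlap and the dirty groups did. The averaged change was -0.39 ± 0.12, 1.31-fold lower in VM, with an edgeR adjusted p of 0.0303. That call was lost with no filter beyond 1 count (edgeR adjusted p = 0.128).

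MiR-23b-3p, the paralog of miR-23a-3p, was at 1684 and 1697 CPM in Clean TN and at 1134, 1311 and 1286 CPM in Clean VM. It was at 1201, 1781 and 1837 CPM in Dirty TN and at 1245, 1287 and 1341 CPM in Dirty VM. As for miR-23a-3p, Dirty TN replicate 1 was the low TN library, here below all Dirty VM libraries. The averaged change of -0.38 ± 0.14 did not pass (edgeR adjusted p = 0.0611).

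**Figure D2:**
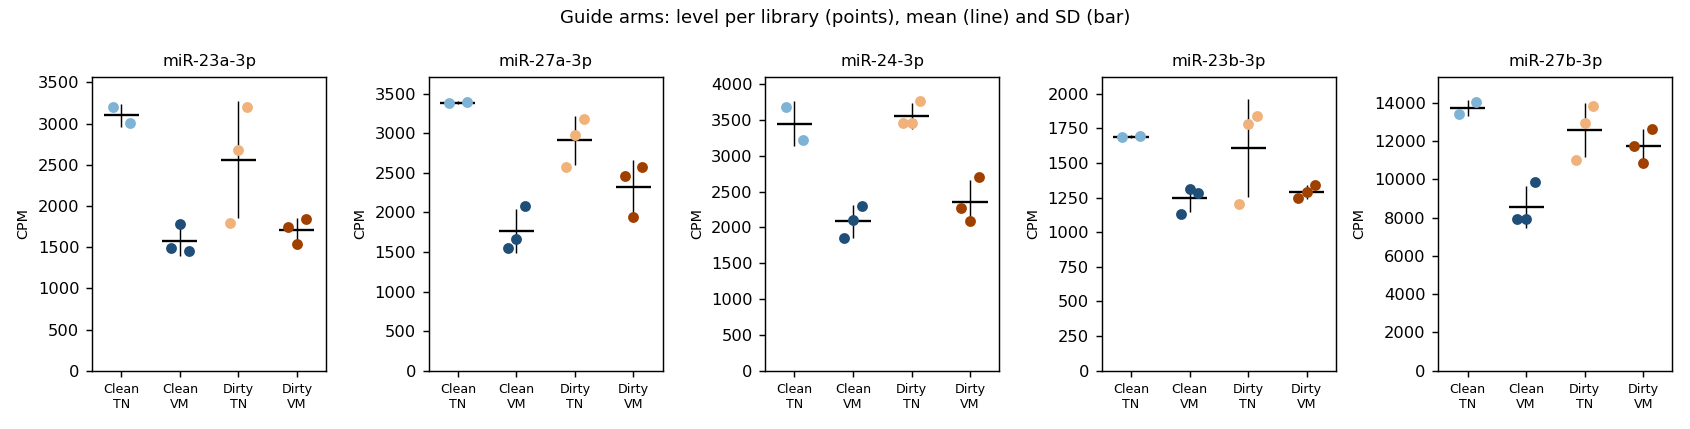
Level of each guide arm in CPM, with an axis from 0 for each miRNA, in every library (points) of the 4 groups, with the group mean (line) and SD (bar). In clean mice every TN library is above every VM library for all 5 guides, while in dirty mice only miR-24-3p keeps the groups apart.

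Changes of the guides were also fitted in shallow and deep libraries apart. In the 5 shallower libraries, at least 1 per group with totals up to 4116012 counts, the averaged change was -0.78 for miR-23a-3p, -0.71 for miR-27a-3p and -0.66 for miR-24-3p. In the 6 deeper libraries it was -0.77, -0.57 and -0.64 in the same order. With so few libraries the edgeR adjusted p was under 0.05 for miR-23a-3p and miR-27a-3p in the shallow ones (0.0235 and 0.0436, miR-24-3p 0.0629) and for none of these 3 in the deep ones (0.158, 0.234 and 0.171). For miR-27b-3p the values were -0.43 and -0.35, and for miR-23b-3p -0.47 and -0.33. Leaving out any one library kept miR-23a-3p, miR-27a-3p, miR-24-3p and miR-24-2-5p below the threshold in edgeR, with adjusted p-values up to 0.0368. MiR-27b-3p passed in 7 of these 11 fits and miR-24-1-5p in 5.

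In clean mice, 4 of the 10 members were lower in VM cells and none was higher (edgeR, adjusted over 549 rows), where 9.47% of all rows tested were lower and 8.93% higher. All 4 were guides. MiR-23a-3p fell by 0.98 ± 0.23 on the log2 scale, 1.97-fold, with an edgeR adjusted p of 0.00984. MiR-27a-3p fell by 0.94 ± 0.20, 1.92-fold (edgeR adjusted p = 0.00586). MiR-24-3p and miR-27b-3p fell by 0.72 ± 0.18 and 0.68 ± 0.18 (edgeR adjusted p = 0.0160 and 0.0195). With no filter beyond 1 count, miR-27b-3p did not pass (edgeR adjusted p = 0.0651). MiR-23b-3p, at -0.44 ± 0.20, did not pass (edgeR adjusted p = 0.155).

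The libraries of Clean VM were all below those of Clean TN for 6 members, the 5 guides and miR-24-1-5p, and the same was true of 27.3% of all rows tested. The calls in clean mice rested on 2 TN libraries. Without Clean TN replicate 2, which leaves 1 library in that group and assumes that it varies like the others, only miR-27a-3p passed (edgeR adjusted p = 0.0431).

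In dirty mice, 2 of the 10 members were lower in VM cells and none was higher (edgeR, adjusted over 549 rows), where 6.19% of all rows tested were lower and 5.83% higher. Both came from mir-24 hairpins. MiR-24-2-5p, the chromosome 8 passenger, fell by 0.85 ± 0.23 (edgeR adjusted p = 0.0250), and miR-24-3p fell by 0.60 ± 0.17 (edgeR adjusted p = 0.0307). MiR-23a-3p, at -0.58 ± 0.20, was not past the threshold (edgeR adjusted p = 0.0808), and it passed in 1 of 11 fits that left out a library. It was at -0.75 without Dirty TN replicate 1 and at -0.30 without Dirty TN replicate 3 (edgeR adjusted p = 0.0216 and 0.315). MiR-27a-3p, miR-23b-3p and miR-27b-3p stood at -0.32 ± 0.18, -0.32 ± 0.18 and -0.10 ± 0.16 (edgeR adjusted p = 0.290, 0.314 and 0.771), the last at 0.01 with library totals in place of TMM.

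All Dirty VM libraries lay below all Dirty TN libraries for miR-24-3p, miR-24-2-5p, miR-24-1-5p and miR-27a-5p, as they did for 13.8% of all rows tested. These calls depended on single libraries. MiR-24-3p passed in 3 of 11 fits that left out a library and miR-24-2-5p in 8. With depth class as a term the edgeR adjusted p of miR-24-3p was 0.0523, and with no filter beyond 1 count it was 0.086. No member passed without Dirty TN replicate 2, Dirty VM replicate 1 or Dirty VM replicate 2, and 1 passed without Clean TN replicate 2, Clean TN replicate 3 or Clean VM replicate 2.

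**Figure D3:**
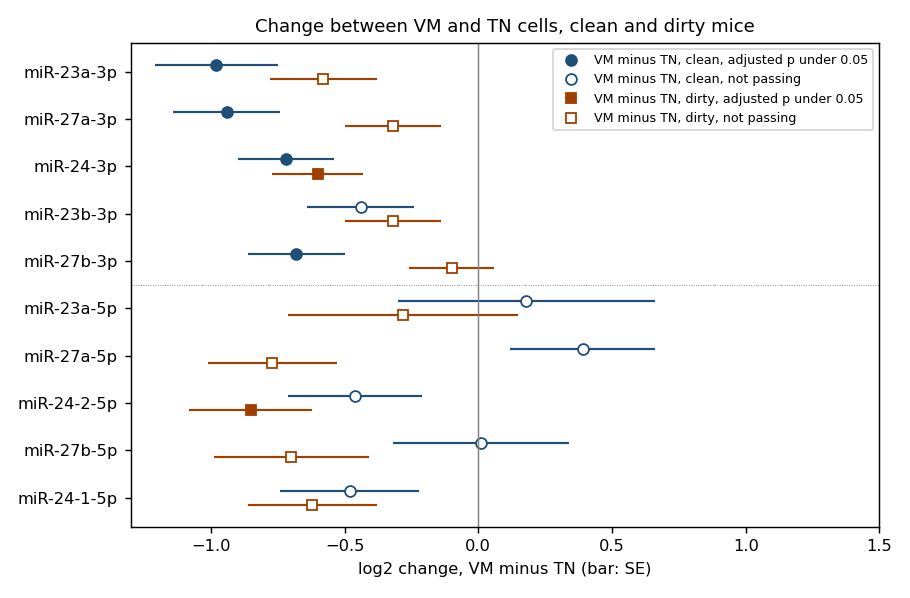
Log2 change between VM and TN cells (x axis; bars, SE) for each member in clean mice (blue circles) and dirty mice (brown squares), guides above the dotted line and passengers below it, with filled symbols for an edgeR adjusted p under 0.05. The filled clean symbols are 4 guides between -0.98 and -0.68, and the filled dirty symbols are miR-24-3p at -0.60 and miR-24-2-5p at -0.85.

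The passengers were far rarer than their guides. Of these arms miR-24-2-5p had the highest mean level in 3 of the 4 groups, with 130 and 139 CPM in Clean TN and 79.8, 79.0 and 133 CPM in Clean VM. It was at 175, 191 and 139 CPM in Dirty TN and at 86.9, 94.1 and 98.8 CPM in Dirty VM. Clean VM replicate 3 was high and overlapped the Clean TN libraries. Averaged over both environments it changed by -0.66 ± 0.17 (edgeR adjusted p = 0.0112), the same log2 change as its guide, miR-24-3p.

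MiR-24-1-5p, the chromosome 13 counterpart, was at 19.0 and 21.1 CPM in Clean TN and at 13.2, 15.2 and 14.6 CPM in Clean VM. It was at 24.6, 25.8 and 20.6 CPM in Dirty TN and at 14.6, 12.6 and 18.5 CPM in Dirty VM. No VM library reached the TN libraries of its environment. The averaged change was -0.55 ± 0.18, a 1.46-fold lower level (edgeR adjusted p = 0.0351). That call was lost with limma-voom (adjusted p = 0.0527) and, in edgeR, with no filter (0.167) and with identical rows kept once (0.0503). The passengers of both mir-24 hairpins share split reads in 8 of 11 libraries, so their changes are not independent of each other.

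MiR-27a-5p is the passenger of mir-27a. It had 79.5 and 102 CPM in Clean TN and 96.7, 101 and 156 CPM in Clean VM. In dirty mice the values were 158, 159 and 104 CPM in TN and 75.2, 76.7 and 94.3 CPM in VM. The clean groups overlapped, and every Dirty VM library was below every Dirty TN library. Its VM minus TN change was 0.39 ± 0.27 in clean mice (edgeR adjusted p = 0.353) and -0.77 ± 0.24 in dirty mice (edgeR adjusted p = 0.0556), so neither passed.

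MiR-27b-5p was at 27.2 and 29.9 CPM in Clean TN, at 27.9, 24 and 34.4 CPM in Clean VM, at 63.4, 39.3 and 32.0 CPM in Dirty TN and at 19.0, 34.4 and 29.7 CPM in Dirty VM. Dirty TN replicate 1 was the highest of the 11. Its averaged change of -0.34 ± 0.22 was not past the threshold (edgeR adjusted p = 0.289). MiR-23a-5p ranged from 2.85 to 6.08 CPM, or 8 to 69 counts per library, and its averaged change was -0.05 ± 0.32 (edgeR adjusted p = 0.924). The SE of its change was 0.48 in clean and 0.43 in dirty mice, the widest among the members.

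**Figure D4:**
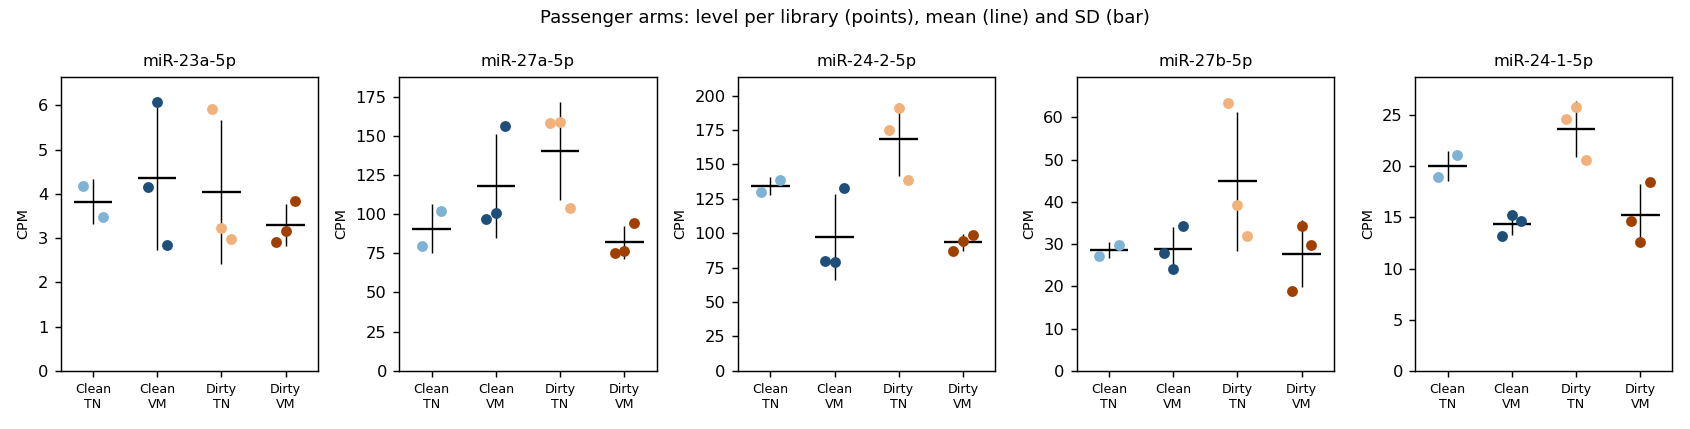
Level of each passenger arm in CPM, with an axis from 0 for each miRNA, in every library (points) of the 4 groups, with the group mean (line) and SD (bar). MiR-24-1-5p separates TN from VM libraries in both environments, and miR-27a-5p is higher in Dirty TN than in Clean TN and lower in Dirty VM than in Clean VM.

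Ratios of 2 members within a library do not depend on the scaling between libraries, and they ask whether members changed to a different extent. Each was tested between VM and TN cells with a two-sided exact permutation test that moved subset labels within each environment (200 arrangements, smallest possible p 0.005), adjusted over 11 ratios. For both paralog pairs, the counts of the chromosome 8 copy fell further than those of the chromosome 13 copy. These were the 2 ratios of 11 that passed. Reads split between the rows of a pair also enter these 2 ratios. Their number is not given, so their part in the changes was not tested.

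MiR-23a-3p made up 65.5% and 63.9% of the miR-23 guides in Clean TN and 56.8%, 57.7% and 53.0% in Clean VM. In dirty mice its part was 59.9%, 60.1% and 63.5% in TN and 58.3%, 54.5% and 57.8% in VM. Every VM library was below every TN library of its environment. The log2 ratio of miR-23a-3p over miR-23b-3p was lower in VM by 0.54 in clean mice and by 0.26 in dirty mice, with an average of -0.40 (exact permutation p = 0.005, adjusted 0.0275).

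MiR-27a-3p made up 20.1% and 19.5% of the miR-27 guides in Clean TN and 16.4%, 17.3% and 17.4% in Clean VM. In Dirty TN its part was 18.9%, 18.7% and 18.7%, and in Dirty VM 17.4%, 15.2% and 16.9%. Again no VM library reached a TN library of its environment. The log2 ratio of miR-27a-3p over miR-27b-3p changed by -0.27 in clean mice and -0.23 in dirty mice, on average by -0.25 (exact permutation p = 0.005, adjusted 0.0275). Both pairs gave the smallest p that their arrangements allow, also with each of the 11 libraries left out in turn. The fewer arrangements then gave exact permutation p-values of 0.01 to 0.0167, which pass the adjusted threshold for 1 of these 11 cases (adjusted p up to 0.0917).

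No ratio between different guides within a cluster passed. For miR-23a-3p over miR-27a-3p the averaged VM minus TN change was -0.12 (exact permutation p = 0.425, adjusted 0.668), and for miR-23b-3p over miR-27b-3p it was 0.02 (exact permutation p = 0.840, adjusted 0.946). MiR-24-3p, summed over both chromosomes, changed by 0.10 over miR-23a-3p (exact permutation p = 0.5, adjusted 0.688). Over the 11 libraries the SD of these log2 ratios was 0.23, 0.20 and 0.24, against 0.45 for miR-23a-3p, 0.40 for miR-27a-3p, 0.38 for miR-24-3p, 0.30 for miR-27b-3p and 0.25 for miR-23b-3p alone.

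The guide over passenger ratio of mir-27a had opposite signs of change in the 2 environments, as did all those tested except mir-23a. MiR-27a-3p was 42.5 and 33.4 times its passenger in Clean TN and 16.0, 16.4 and 13.3 times in Clean VM. In Dirty TN the ratio was 16.3, 18.7 and 30.6, and in Dirty VM 32.7, 25.2 and 27.2. The clean groups were apart, with TN above VM, and the dirty groups overlapped. The log2 ratio changed by -1.31 in clean mice and by 0.42 in dirty mice, and the average of -0.44 did not pass (exact permutation p = 0.255, adjusted 0.561). For mir-24, the guide over its passengers changed by 0.01 with miR-24-2-5p and by -0.10 with miR-24-1-5p (exact permutation p = 0.965 and 0.395, adjusted 0.965 and 0.668). In clean mice these were -0.22 and -0.24, and in dirty mice 0.24 and 0.03. Mir-27b had -0.68 in clean and 0.58 in dirty mice, and mir-23b -1.06 and 0.07. For mir-23a both were negative, at -1.1 and -0.34. The averages of mir-27b, mir-23b and mir-23a were -0.05, -0.49 and -0.72 (exact permutation p = 0.86, 0.22 and 0.075, adjusted 0.946, 0.561 and 0.275). Without Dirty TN replicate 1, mir-23a passed at -0.99 (exact permutation, adjusted p = 0.0367).

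**Figure D5:**
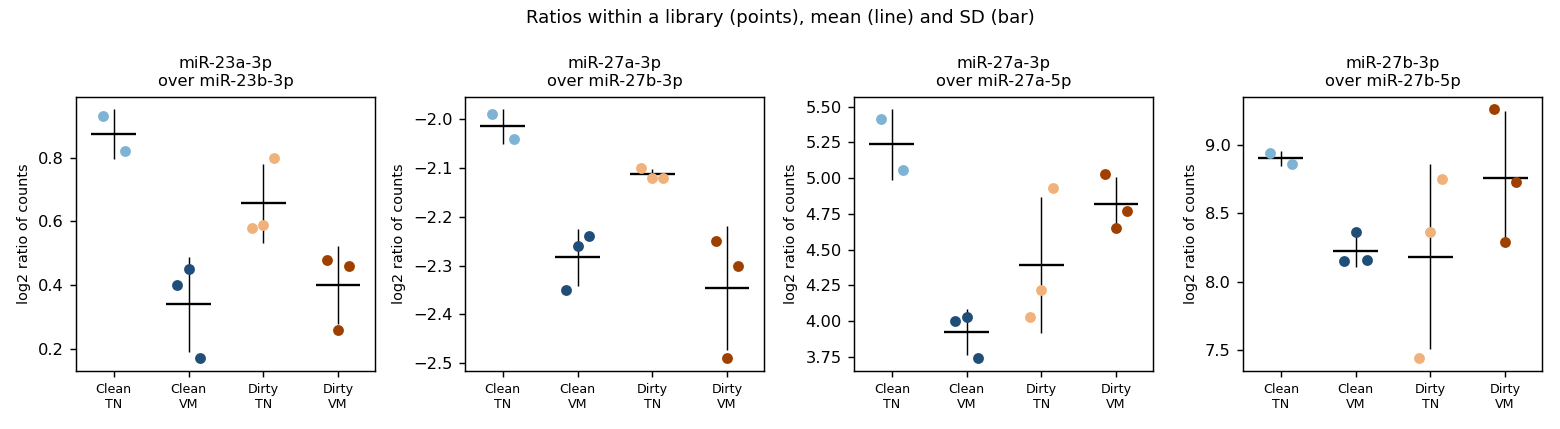
Log2 ratio of counts of 2 members within each library (points) in the 4 groups, with the group mean (line) and SD (bar); the axes do not start at 0 because a log2 ratio has no natural zero. In the 2 left panels, the paralog pairs, every VM library is below the TN libraries of its environment, while in the 2 right panels, guide over passenger, the clean and dirty groups are ordered differently.

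Between dirty and clean mice no member passed in any of the 3 comparisons (averaged over TN and VM, in TN cells, in VM cells), and 0.0% of all rows tested passed in edgeR. At an unadjusted p under 0.05, the members were 0, 1 and 2 in these comparisons, against 3.83%, 4.74% and 15.5% of all rows. DESeq2 passed 0, 0 and 1 member, against 0.182%, 0.546% and 3.28% of all rows. Limma-voom passed no member, against 0.0%, 0.0% and 0.729% of all rows. The averaged log2 change of the 5 guides lay between -0.08 and 0.16 and that of the passengers between -0.15 and 0.30. These comparisons share their samples with those above, so the values are set side by side and not as separate support.

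In TN cells the guides differed between dirty and clean mice by -0.28 to 0.04 and the passengers by 0.08 to 0.65. In VM cells the guides differed by 0.05 to 0.45 and the passengers by -0.52 to 0.10. MiR-27b-3p in VM cells stood at 0.45 ± 0.16 in dirty against clean mice, with all Dirty VM libraries above all Clean VM libraries, a pattern shown by 9.65% of all rows tested. Its edgeR adjusted p was 0.233. It passed in DESeq2 (0.48, adjusted p = 0.0461) and in edgeR without Dirty TN replicate 3 (0.53, adjusted p = 0.0349). MiR-27a-3p in VM cells stood at 0.40 ± 0.18 (edgeR adjusted p = 0.311).

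The interaction asks whether VM cells differed from TN cells by another amount in dirty than in clean mice. No member passed in edgeR, as 0.0% of all rows did, while 3 members had an unadjusted p under 0.05, as 16.8% of all rows did, and 1 passed in DESeq2, as 7.47% of all rows did. The difference was positive for the 5 guides (0.13 to 0.62), meaning a smaller fall in dirty mice, and negative for the 5 passengers (-1.15 to -0.14). It was 0.62 ± 0.27 for miR-27a-3p and 0.58 ± 0.24 for miR-27b-3p (edgeR adjusted p = 0.249 and 0.224). MiR-27a-5p had -1.15 ± 0.37 (edgeR adjusted p = 0.133, DESeq2 adjusted p = 0.0294). Without Dirty TN replicate 3, these 3 passed in edgeR, at 0.89, 0.85 and -1.13 (adjusted p = 0.0295, 0.0136 and 0.0288). Without that library 13.8% of all rows tested passed the interaction, and 5.5% passed dirty minus clean in TN cells and 5.5% in VM cells. Calls made in one environment and not in the other are therefore not shown to differ.

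The neighbours of the members in the genome gave little signal. MiR-23b-5p had group means of 8.65 to 14.2 CPM and an averaged VM minus TN change of 0.15 ± 0.27 (edgeR adjusted p = 0.727). MiR-3074-5p lies opposite miR-24-3p and is complementary to it over 20 bases. Its 2 rows, one per hairpin, had group means of 4.47 to 6.10 CPM and averaged changes of 0.10 ± 0.25 and 0.24 ± 0.25 (edgeR adjusted p = 0.814 and 0.510). Both hairpins give the same mature sequence and the counts of the rows were equal in some libraries. The rows are therefore not separate measurements. Whether counting used the strand is not given in the sources used here. MiR-3074-1-3p and miR-3074-2-3p were not tested, with group means up to 0.682 and 0.0277 CPM. MiR-128-3p, whose targets are known to overlap with those of miR-27, had averaged changes of -0.23 ± 0.20 and -0.09 ± 0.19 on its 2 rows (edgeR adjusted p = 0.424 and 0.750).

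Among 261 miRNAs with a mean of 10 CPM or more, those most like the mean of miR-23a-3p and miR-27a-3p over the 11 libraries were miR-181a-1-3p, miR-467b-5p, miR-467a-5p, miR-211-5p and miR-872-3p. Pearson's r of log2 levels ran from 0.92 to 0.95. For the mean of miR-23b-3p and miR-27b-3p they were miR-700-3p, miR-872-3p, miR-467b-5p, miR-532-3p and miR-467a-5p, with r from 0.89 to 0.93. MiR-872-3p, miR-467b-5p and miR-467a-5p were in both. The points share libraries, groups and scaling, and r is given as a description.

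Lymphocyte miRNAs were abundant in all libraries: miR-150-5p, miR-142a-3p, miR-342-3p and miR-181a-5p summed to 69224 to 151416 CPM. The sum was 139827 to 151416 CPM in Clean TN, 75918 to 112599 in Clean VM, 69224 to 142551 in Dirty TN and 81153 to 93098 in Dirty VM. Most of it was miR-150-5p, at 61004 to 140531 CPM. The others were far lower, with miR-142a-3p at 1318 to 1843, miR-342-3p at 2283 to 5848 and miR-181a-5p at 879 to 4518 CPM. Markers of other cells were present, and the ranges of their sums were mostly higher in VM libraries, though not those of every miRNA. The hepatocyte miRNA miR-122-5p was at 890 to 1725 CPM in TN and 1109 to 2817 CPM in VM libraries. The 5 epithelial miRNAs of the miR-200 family summed to 1289 to 1639 CPM in TN and 1529 to 2095 CPM in VM libraries. Erythroid (3 miRNAs, 36.6 to 70.0 CPM in TN and 55.8 to 145.01 in VM), stromal (3 miRNAs, 48.5 to 83.7 and 61.2 to 125) and endothelial (2 miRNAs, 15.5 to 30.3 and 19.8 to 48.9) sums were lower. The myeloid arms of miR-223 summed to 0.245 to 3.69 CPM, and the erythroid miR-144-3p was at 0 in 6 of 11 libraries. The part of these miRNAs in the differences between VM and TN cells was not tested.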

How the data were processed

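Small RNA libraries of sorted spleen CD8+ T cells were analysed from 1 table of 2128 rows and 11 libraries. The values were expected counts as the authors deposited them, estimated counts some with a fraction of 0.5. Per the submitters' processing notes the build was mm10. The aligner and counter are not given in the sources used here. Members and lists were chosen with earlier results of these data known.

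Rows with the same name and identical values were summed, because the values had the form that an equal split of shared reads would give (120 rows were joined, leaving 2008). Counts were rounded and filtered with filterByExpr, which kept 549 rows. One model with a mean per group was fitted to all libraries in edgeR 4.0.16 (R 4.3.3; TMM, robust glmQLFit, glmQLFTest, two-sided), and the script was tested on simulated data. P-values were adjusted by Benjamini-Hochberg over the 549 rows, with a threshold of 0.05. The SE was worked back from the F statistic and the log2 change. Ratios within libraries used counts plus 0.5 and exact permutation (SciPy 1.17.1). Likeness used log2(CPM + 0.5).

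All members were named. So were the listed neighbours, the miRNAs sharing a guide's seed, and the 5 miRNAs most like each guide pair. Alternatives were DESeq2 1.42.0, limma-voom (limma 3.58.1), other scalings, filters and row handling, a replicate block, depth classes (totals up to or above 4116012 counts), only the groups compared, and leaving out each library. Keeping identical rows once was added after the data were seen. Per the labels, groups share replicate numbers. Deviations of same-numbered libraries correlated between -0.56 and 0.43 in 15 pairs, 6 of them above 0.1 and all 6 of the same depth class, so the numbers were not taken to pair samples. Across all pairs of libraries from different groups, the correlation was above 0 in 22 of 22 pairs of the same depth class and in 1 of 23 of different depth classes. Deviations were taken from group means of 2 or 3 libraries and sum to 0 within a group. The signs of these correlations are therefore partly fixed, and the pairs are not separate observations.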

Additional observations from a re-analysis of the deposited data

Results flagged for a closer look

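MiR-27a-5p stood apart between TN and VM cells in its difference between dirty and clean mice. Every Dirty TN library (104 to 159 CPM) was above every Clean TN library (79.5 to 102 CPM), and every Dirty VM library (75.2 to 94.3 CPM) was below every Clean VM library (96.7 to 156 CPM). Of all rows tested, 12.4% were higher without overlap in TN cells and 11.5% lower without overlap in VM cells. The share of all rows with both patterns was not computed. Members were flagged for opposite differences without overlap, or for an edgeR interaction adjusted p under 0.05. The pattern is thus the rule that picked miR-27a-5p and not a separate result. Dirty minus clean was 0.63 ± 0.28 in TN cells and -0.52 ± 0.24 in VM cells (log2 ± SE, edgeR adjusted p = 0.658 and 0.322). The difference between them, the interaction, was -1.15 ± 0.37 and did not pass in edgeR (adjusted p = 0.133, with 0.0288 to 0.915 over the alternatives).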

How the results depend on the processing

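Members passing moved with the libraries used. In shallow libraries only, 3, 1 and 0 passed (averaged, clean and dirty VM minus TN), against 8.71%, 7.29% and 4.0% of 425 rows. In deep libraries only, 0, 0 and 0 passed, against 6.54%, 1.38% and 0.0% of 581 rows. These fits have fewer samples. In dirty mice 1 passed with library totals only, rows summed per miRNA, depth class as a term or only the groups compared. DESeq2 passed 1 member for dirty minus clean in VM cells and 1 for the interaction. Leaving out each library gave 4 to 7 (averaged), 1 to 5 (clean), 0 to 3 (dirty), 0 to 1 (dirty minus clean in VM cells) and 0 to 3 (interaction) members, and 0 to 3 passing ratios. It moved miR-23a-3p over miR-23b-3p between -0.42 and -0.36 and miR-27a-3p over miR-27b-3p between -0.27 and -0.21, with fewer arrangements. Calls over all rows moved too, such as 60 in clean mice without Clean VM replicate 2 and 123 without Dirty TN replicate 3. Without the latter, 6, 5, 2, 1 and 3 members passed (averaged, clean, dirty, dirty minus clean in VM cells, interaction). Of all 509 rows then tested, 27.3%, 24.2%, 18.3%, 5.5% and 13.8% passed. With the replicate block, 0 ratios passed, and these 2 were -0.38 and -0.23 (exact permutation, adjusted p = 0.344), where 32 arrangements cannot reach 0.05. The block left 5, 4 and 2 members passing (averaged miR-24-1-5p had an edgeR adjusted p of 0.0657) and moved the count of all rows in clean mice from 101 to 59. Over all 549 rows, DESeq2 passed 1, 3, 18 and 41 rows for the dirty minus clean comparisons and the interaction, where edgeR passed 0. Clean TN without replicate 2 or 3 gave 35 or 33 rows in clean mice.

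Reversals were seen only in values that had not passed. For miR-23a-5p the averaged change was 0.16 in shallow libraries (-0.21 to 0.12 without 1 library), the clean change -0.02 in deep libraries (-0.18 to 0.34) and the dirty change 0.03 in shallow libraries (-0.41 to 0.15). MiR-27a-5p gave 0.04 on average in deep libraries and -0.04 in clean mice in shallow ones. MiR-27b-5p in clean mice gave -0.17 (library totals), -0.03 (rows summed), -0.01 (replicate block), -0.01 (depth class), -0.07 (shallow), -0.04 (deep) and -0.04 (only the groups compared), and -0.21 to 0.09 without 1 library. MiR-27b-3p in dirty mice gave 0.01 (library totals), 0.01 (rows summed), 0.04 (deep) and -0.15 to 0.06 without 1 library. MiR-23b-3p over miR-27b-3p gave -0.01 with the replicate block and -0.03 to 0.06 without 1 library. The cause was not tested.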
